A study of Mus musculus with 3 samples.

Results

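Pou5f1, Sox2, Nanog and Sall4, transcription factors at the centre of the network that keeps mouse embryonic stem (ES) cells pluripotent, were followed over the first days of a conditional Pou5f1 knockout. Every probe set that the array annotation assigned to these 4 genes alone was taken, which gave 4 of 18193 genes and 5 of the 45037 probe sets read on all arrays: 1 each for Pou5f1, Sox2 and Nanog, and 2 for Sall4. A probe set is a set of oligonucleotides that read 1 transcript, and its signal is a brightness on a linear scale. The series profiled total RNA of mouse ES cells carrying a conditional Oct3/4 (Pou5f1) knockout on 3 arrays: day 0, day 1 and day 2 of the knockout. All 3 groups are labelled as the conditional knockout, and ES cells that lack the gene from the start cannot be maintained. The strain, the way the gene was altered, the way its loss was induced and the number of clones are not given in the sources used here. With 1 array per day there was no replicate error and no test, and every value below describes these 3 arrays. The later days have no array of cells that kept expressing the gene, so loss of Oct3/4 and time in culture cannot be told apart.

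Oct3/4, the POU-domain protein encoded by Pou5f1, binds DNA together with Sox2, a protein of the SRY-related HMG box family, at sites where an octamer lies beside a SOX motif. Such joined sites lie in control regions of Pou5f1, Sox2 and Nanog themselves, so that the factors sustain their own transcription. Nanog, a homeodomain protein, stabilises self-renewal and holds back primitive endoderm, the lineage that forms the yolk sac lining. Sall4, a zinc finger protein, binds many of the same regions in ES cells and recruits the NuRD deacetylase complex. In the mouse, loss of Oct3/4 is known to turn ES cells towards trophectoderm, the lineage of the placenta.

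Promoter windows, which run from 250 bases before to 50 bases after an annotated transcription start, were matched by symbol for 3 of the 4 genes and are shown because they place the joined site beside the values that follow. The sequences are RefSeq's on mouse assembly GRCm38.p6, plus strand, 5′ to 3′, and capitals mark matches to ATGCAAA (the octamer core) or to ACAATG (a SOX motif), searched on both strands. A joined motif was searched too, the octamer core in its reverse form, TTTGCAT, then any base, then ACAATG. It overlaps both single motifs and was chosen because it is known from the mouse Nanog promoter, so its presence there is not a finding.
Nanog promoter, chr6:122707239-122707538: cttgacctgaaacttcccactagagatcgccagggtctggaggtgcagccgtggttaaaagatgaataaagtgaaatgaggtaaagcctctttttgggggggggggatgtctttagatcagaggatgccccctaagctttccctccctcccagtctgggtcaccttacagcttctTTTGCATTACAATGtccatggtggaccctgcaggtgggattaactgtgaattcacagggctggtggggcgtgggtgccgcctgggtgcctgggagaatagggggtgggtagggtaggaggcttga
Sox2 promoter, chr3:34649745-34650044: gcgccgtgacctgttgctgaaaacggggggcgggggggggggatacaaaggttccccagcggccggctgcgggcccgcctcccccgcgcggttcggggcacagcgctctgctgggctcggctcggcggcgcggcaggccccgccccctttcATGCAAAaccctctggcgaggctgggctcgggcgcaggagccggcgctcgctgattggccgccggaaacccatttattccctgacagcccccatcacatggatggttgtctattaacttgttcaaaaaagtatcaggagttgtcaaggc
Pou5f1 promoter, chr17:35505782-35506081: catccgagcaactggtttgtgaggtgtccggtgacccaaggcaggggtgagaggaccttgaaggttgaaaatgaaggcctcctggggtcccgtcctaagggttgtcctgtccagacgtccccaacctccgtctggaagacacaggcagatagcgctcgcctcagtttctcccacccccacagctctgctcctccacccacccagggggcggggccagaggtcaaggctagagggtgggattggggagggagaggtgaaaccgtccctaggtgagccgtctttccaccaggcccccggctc

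The Nanog window held the joined motif as TTTGCATTACAATG, from −75 to −62 counted from the start site as 0. A second annotated Nanog start held the same match from −151 to −138. Among 32851 windows of this length, 2 held the joined motif, and both were windows of Nanog, 1 of 27025 genes. The octamer core was in 4.63% of the windows and ACAATG in 12.6%. The Sox2 window held the octamer core from −99 to −93 and no ACAATG. The Pou5f1 window shown held neither, and a second annotated Pou5f1 start held ACAATG from −158 to −153. No match says only that these letters are not in this window.

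Pou5f1 was nearly gone after 1 day. Its signal was 2400 on day 0, 40.8 on day 1 and 15.5 on day 2, so 1.70% of the day 0 signal was left at day 1 and 0.646% at day 2. The signal at both later days lay below 55.9, the 40th percentile of all signals, which was added to every signal before taking log2, so their order is unresolved. The added constant makes log2 differences of dim genes smaller than the ratios of their signals. Pou5f1 was at −4.67 for day 1 minus day 0 and −5.10 for day 2 minus day 0. No other kept probe set of 26925 was lower at day 1. At day 2 it was among the lowest genes, with 3 genes lower, Lefty1, Nr0b1 and Tdgf1, a place that the constant sets: 2 were lower with a constant of 27.9 and 6 with a constant of 112. Kept means a mean signal over the 3 arrays of at least the constant, which all 5 probe sets of the 4 genes had. In a bulk culture fewer cells with a transcript and less transcript per cell cannot be told apart, here and in all that follows. Whether the probe set lies in a part of the gene that the knockout altered is not known.

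**Figure D1:**
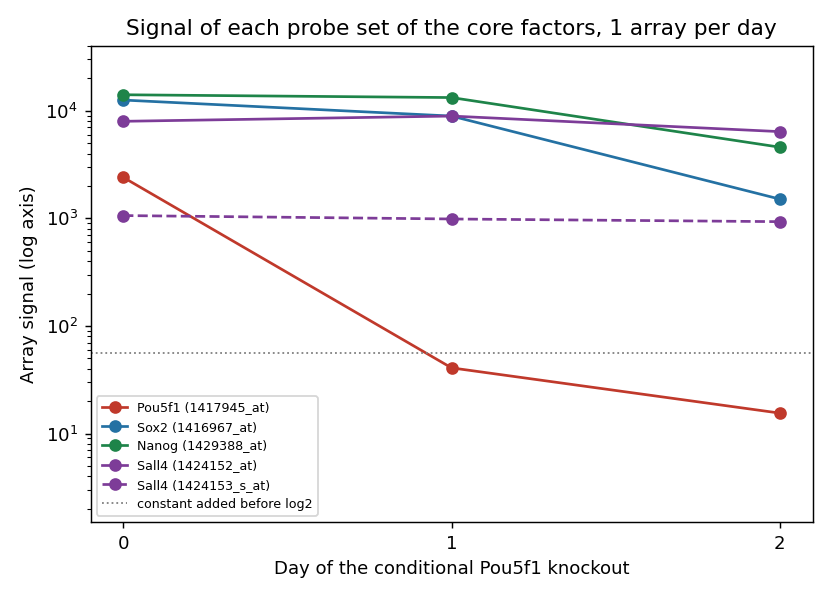
Array signal (log axis) of the 5 probe sets at day 0, day 1 and day 2, 1 point per array, with a dashed line for the second Sall4 probe set and a dotted line at the constant of 55.9. Pou5f1 was at 40.8 by day 1, and both Sall4 lines stayed nearly level. At day 1 Sox2 stood at 71.0% and Nanog at 94.2% of the day 0 signal, and both were lower at day 2.

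Sox2, the DNA-binding partner of Oct3/4, was mostly retained at day 1 and steeply lower at day 2. Its signal was 12563 on day 0, 8921 on day 1 and 1510 on day 2, which leaves 71.0% of the day 0 signal at day 1 and 12.0% at day 2. Day 1 minus day 0 was −0.49 in log2, less than 2-fold, and day 2 minus day 0 was −3.01, or 8.06-fold lower. Only 16.3% of the log2 difference at day 2 was present at day 1. Between day 1 and day 2 the difference was −2.52, or 5.73-fold lower, and just 12 of 26925 kept probe sets had a lower value over that interval.

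Nanog showed the same delay with a smaller difference. Its signal was 14073 on day 0, 13256 on day 1 and 4585 on day 2, so 94.2% of the day 0 signal remained at day 1 and 32.6% at day 2. In log2, day 1 minus day 0 was −0.09, and 34.9% of the kept probe sets were lower than that. Day 2 minus day 0 was −1.61, or 3.04-fold lower, and day 2 minus day 1 was −1.52. At day 2 the Nanog signal was still far above the constant, unlike that of Pou5f1.

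Sall4 stayed within 2-fold throughout. The brighter probe set gave 7973 at day 0, 8922 at day 1 and 6396 at day 2, and the other gave 1061, 987 and 932 on the same days. Relative to day 0, the brighter probe set stood at 112% at day 1 and 80.2% at day 2, and the other at 93.0% and 87.8%. The log2 differences were 0.16 and −0.10 for day 1 minus day 0 and −0.32 and −0.18 for day 2 minus day 0. The probe sets differ in sign at day 1, by less than the spread between probe sets of a gene given next.

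Probe sets of the same gene offer the only error available. Over 5906 genes with several kept probe sets, their log2 differences had a pooled SD of 0.34 for day 2 minus day 0, and of 0.30 for day 1 minus day 0 and for day 2 minus day 1. For the 1361 genes with several probe sets at a mean signal of 1000 or more, where Sox2, Nanog and the brighter Sall4 probe set lie, these SDs were 0.20, 0.16 and 0.14 in the same order. This spread covers probes and leaves out cultures and hybridisations. In units of the SD over all genes, the difference to day 0 at day 1 was −1.64 for Sox2 and −0.287 for Nanog. At day 2 it was −8.75 for Sox2, −4.67 for Nanog, and −0.918 and −0.518 for the Sall4 probe sets.

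At day 2 the order of the differences was Pou5f1, Sox2, Nanog and Sall4 from lowest up. In log2, Pou5f1 minus Sox2 was −2.09, Sox2 minus Nanog −1.40 and Nanog minus Sall4 −1.29. In SDs that the probe set spread gives for a difference between 2 genes these were −4.30, −2.89 and −2.65. At day 1 Pou5f1 minus Sox2 was −4.18, or −9.85 of these SDs. Among the others, Sox2 minus Nanog was −0.41, Nanog minus Sall4 −0.25 and Sox2 minus Sall4 −0.65, or −0.956, −0.583 and −1.54 SDs. By the smaller spread of bright probe sets these were −1.74, −1.06 and −2.80 SDs, and Sox2 at day 1 was −2.98 such SDs from day 0. Neither spread covers cultures or hybridisations, so whether Sox2 RNA was already lower at day 1 was not tested. Of the 5 probe sets, 1 was at least 2-fold lower at day 1 against day 0, where 2.28% of all kept probe sets were, and 3 at day 2 against day 0, where 4.87% were. For day 2 against day 1 the count was 2, Sox2 and Nanog, where 2.41% of kept probe sets were lower. At least 2-fold higher were 0 of the 5 in each comparison, where 2.09% of kept probe sets were higher at day 1 against day 0, 4.48% at day 2 against day 0 and 1.81% at day 2 against day 1. The median of the 5 was −0.10 at day 1 and −1.61 at day 2 against day 0, and over all kept probe sets it was 0.05 and 0.04.

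**Figure D2:**
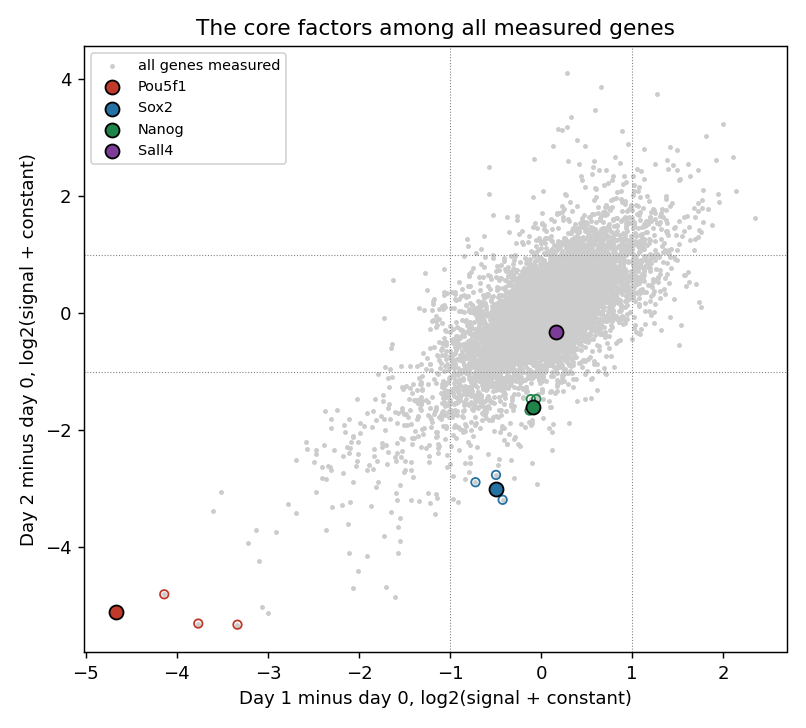
Log2 difference at day 1 (horizontal) and at day 2 (vertical), each against day 0, for 12717 genes in grey, the core factors as filled circles and, as open circles in the same colour, the 3 genes nearest to each. Dotted lines mark 2-fold. Pou5f1 lies at the lower left, at −4.67 and −5.10. Sox2 and Nanog lie at −0.49 and −0.09 on the horizontal axis and below the lower 2-fold line on the vertical axis. At day 2, 45 genes were lower than Sox2 and 292 lower than Nanog. Sall4 lies inside the grey cloud.

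The pairs of differences were also set against all 12717 genes, a gene being read by the brightest of its kept probe sets. The limits in this paragraph were chosen after the values were seen. Of these genes, 5.65% were at least 2-fold lower at day 2 and 2.59% at day 1 against day 0. Sox2 was 1 of 4 genes that were at least 8-fold lower at day 2 but less than 2-fold lower at day 1. At 8.06-fold it lay just inside, the smallest difference of the 46 genes at least 8-fold lower at day 2. Its size depends on the constant: the set held 0 genes with a constant of 112, where Sox2 was at −2.97, and 7 with a constant of 27.9. As means over the probe sets of a gene it held Sox2 alone. The others were Etv4, an ETS factor induced by FGF signalling, Pla2g1b, a secreted phospholipase A, and Rasgrp2, an exchange factor for Rap proteins. Nanog and Sox2 were among 202 genes within 0.5 of day 0 at day 1 and at least 2-fold lower at day 2. Sox2, at −0.49, lay just inside and left the set in 3 of 10 alternatives, those with equal medians, quantile normalization or equal ribosomal protein medians. Nanog stayed in it in all 10. Sox2 and Nanog have 1 probe set each, so another filter or choice of probe sets could not move their values. Leaving out the scaling hardly moved them. Sall4 was among 7774 genes, 61.1% of all, within 0.5 of day 0 at both days.

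Likeness was measured as the distance between genes in the pair of log2 differences to day 0, over 3 arrays. Nearest to Pou5f1 were Slc7a3, a cationic amino acid transporter, at a distance of 0.61, Nr0b1, a nuclear receptor that binds Oct3/4 in mouse ES cells, at 0.92, and Lefty1, a Nodal inhibitor, at 1.35. No gene lay within 0.25 of Pou5f1. These distances too move with the constant, from 0.19 to 1.11 for Slc7a3, since the later signals are dim. Nearest to Sox2 were Etv4 at 0.19, the cytidine deaminase gene Apobec3 at 0.25 and Cpsf4l at 0.26, and 2 genes lay within 0.25. The day 2 signal of Etv4, 14.0, was below the constant, and its distance was 0.83 with a constant of 27.9, 0.51 with 112 and 0.78 when its probe sets were averaged. For Apobec3, with a day 2 signal of 278, the distance was 0.16 and 0.39 with these constants. Cpsf4l was at −0.95 for day 2 minus day 0 without the probe sets whose names end in _x_at, _s_at or _a_at, which can read several transcripts, against −2.89 with them. For Nanog 17 genes lay within 0.25, with B230217C12Rik at 0.07, Ticrr, a regulator of replication initiation, at 0.14 and Thrsp at 0.14 the nearest. The mean over the probe sets of Ticrr was −0.74 for day 2 minus day 0, where its brightest gave −1.47. Thrsp was dim, with signals of 120, 114 and 7.80 from day 0 to day 2, and was at −0.96 with a constant of 112. For Sall4 1138 genes lay within 0.25, and Mfsd13a, Afap1 and Tbxa2r were the nearest, each at less than 0.02.

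Other genes of the POU and SOX families are described here with their alternatives. Of 14 listed POU genes other than Pou5f1, 10 had a probe set of their own, 4 of these were below the constant and 6 were measured. Pou2f3 was the 1 at least 2-fold higher at day 2 against day 0, where 5.25% of all genes were, and it was also higher at day 1, where 2.4% were. Its signal was 38.3 on day 0, 160 on day 1 and 240 on day 2, with log2 differences to day 0 of 1.19 and 1.65, and at day 1 of 0.86 with a constant of 112. Pou2f3 is a factor of skin and tuft cells. Pou2f2 was higher at day 2 against day 1, where 2.09% of all genes were, at 1.18 (signals 102 and 13.8), and at 0.77 with a constant of 112. Its day 1 signal lay below the constant. The other probe sets of Pou2f2, with means below the constant, were at 0.11 and −0.93 in that comparison. Pou6f1 was at −0.87 and Pou4f1 at −0.63 for day 2 minus day 0. Pou3f1, an epiblast and neural factor, was at −0.79 for day 1 minus day 0, and its other probe set at −1.33. In each comparison 1 of the 6 was at least 2-fold higher and 0 lower, so these counts say little about the family. The median of the 6 was 0.09 for day 2 minus day 0, and 0.05 over all genes.

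Of 19 SOX genes other than Sox2, all on the array, 9 had a mean under the constant and 10 were measured. Sox15, which mouse ES cells are known to express, was the 1 at least 2-fold lower at day 2 against day 0. Over all genes 5.65% were, so a count of 1 says little about the family. Its signal was 367 on day 0, 359 on day 1 and 136 on day 2, and its log2 differences to day 0 were −0.03 and −1.14, the second at −0.95 with a constant of 112. Like Sox2 it was less than 2-fold from its day 0 level at day 1 and lower at day 2. Sox21, which Sox2 is known to activate, peaked at day 1 with signals of 322, 745 and 241, and was at 1.08 for day 1 minus day 0 and −1.43 for day 2 minus day 1. The first value was 0.98 with a constant of 112. Its other kept probe set gave 129, 232 and 90.8, the same shape with less than 2-fold at day 1. Sox11 and Sox13 were also at least 2-fold lower at day 2 against day 1, at −1.04 and −1.06, but not with a constant of 112, and the other 3 kept probe sets of Sox11 lay between −0.33 and 0.25. In that comparison 4 of the 10 were lower, where 2.65% of all genes were. The count was 1 with a constant of 112 and 2 with equal array medians. Sox4, a factor of many progenitor cells, was at 0.80, Sox12 at −0.72 and Sox13 at −0.85 for day 2 minus day 0. The dimmer kept probe set of Sox12 was at −1.04. The median of the 10 was −0.31 at day 2 against day 0, and 0.09 without the filter on dim probe sets.

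In the SALL family, Sall1 and Sall2 were measured and Sall3 was below the constant, with signals of 7.60, 5.10 and 46.9. Sall1, which can bind Nanog in mouse ES cells, had 1672, 1570 and 1209 from day 0 to day 2 and was at −0.45 for day 2 minus day 0, and its other probe set was at 0.15. Sall2 was dim, at 117, 76.5 and 44.4, with −0.79 for day 2 minus day 0. Like Sall4, neither was 2-fold apart in any comparison, although Sall2 passed 2-fold at day 2 against day 0 with a constant of 27.9. A further probe set names Sox2ot, a transcript overlapping Sox2, and was read after its values were seen: it had 70.2, 9.30 and 2.00 from day 0 to day 2, a mean below the constant.

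**Figure D3:**
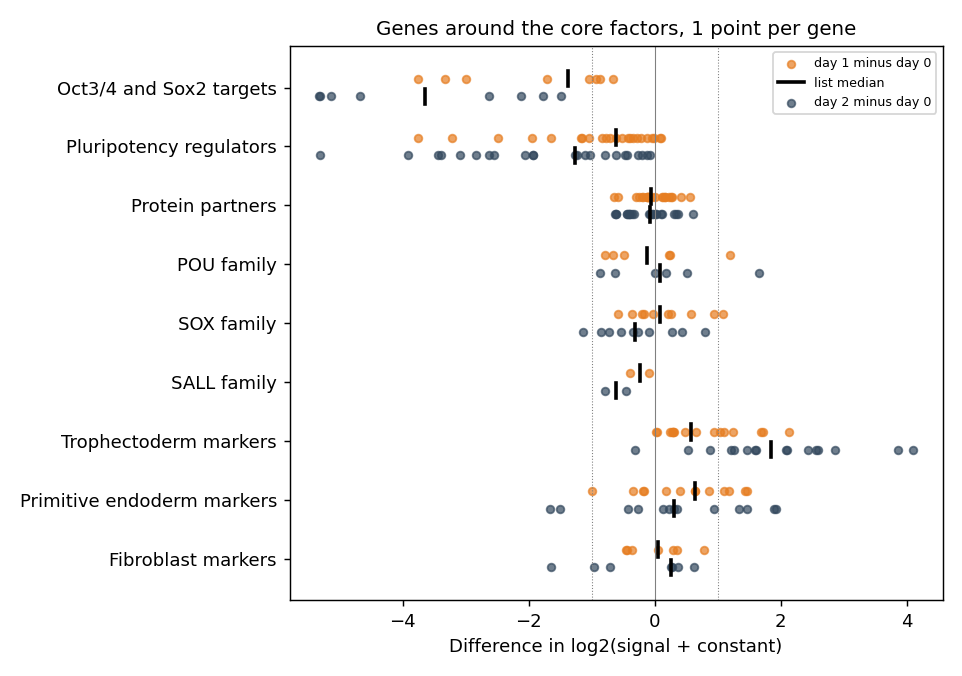
Log2 differences of single genes to day 0, 1 point per gene, at day 1 (orange, upper row of each list) and at day 2 (dark, lower row), with a black bar at each list's median; the 4 core factors are left out. Known targets of Oct3/4 and Sox2 lie to the left at both days, protein partners lie around 0, and most trophectoderm markers lie to the right at day 2.

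Genes known to be bound by Oct3/4 and Sox2 together in mouse ES cells were lower, most of them from day 1 on. Of 10 listed, 8 were measured, and 5 were at least 2-fold lower at day 1 against day 0 and 8 at day 2 against day 0, where 2.59% and 5.65% of all genes were. Their median was −1.37 at day 1 and −3.65 at day 2, and 0.04 and 0.05 over all genes. Fgf4, the growth factor through which ES cells prime for differentiation, had 3253 at day 0, 958 at day 1 and 73.5 at day 2, and was at −1.71 and −4.68 against day 0. Its brightest probe set is used here, and another gave −2.42 at day 2. Tdgf1, the Nodal co-receptor, had 16079, 1970 and 404. Lefty1 had 2821, 229 and 15.9, and Nr0b1 had 2759, 151 and 15.3, the last signal of both below the constant. At day 1 these 4 genes were at least 2-fold lower, and Sox2 stood at 71.0% and Nanog at 94.2% of their day 0 signal. These are RNA signals, and what lowered the targets was not tested. Zfp42, a zinc finger gene used as an ES cell marker, had 18655, 9067 and 2982 and was at −1.04 and −2.62. Promoter windows were matched for 7 of the 10 targets, and 2 of them, those of Zfp42 and Spp1, held the octamer core, 0 held ACAATG and 0 the joined motif. Of all 27025 genes with a window, 5.24% held the octamer core, 14.3% ACAATG and 1 gene the joined motif. At those shares the counts of 0 say little about the targets. Spp1 has no probe set of its own, so it is not among the 8 measured targets.

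Among 24 wider pluripotency regulators, 23 were measured, some of them also in the target list. At day 2 against day 0 15 were at least 2-fold lower and 0 higher, where 5.65% of all genes were lower and 5.25% higher. At day 1 against day 0 8 were lower, where 2.59% of all genes were. The list median was −0.62 at day 1 and −1.27 at day 2. The largest differences at day 2 besides Nr0b1 were those of Tcl1, a cofactor of Akt kinase, at −3.92, Esrrb, an orphan nuclear receptor that binds many Oct3/4 sites, at −3.44, and Otx2, a head and epiblast homeodomain factor, at −3.40. Esrrb had signals of 4927, 2169 and 403, and another of its probe sets was at −1.03 at day 2. Tcl1 had most of its difference by day 1, at −3.22, as Pou5f1 did.

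Partners that bind Oct3/4, Nanog or Sall4 at the protein level were within 2-fold. All 22 listed genes were measured, among them the NuRD subunits, and 0 were at least 2-fold apart in any of the comparisons. Over all genes 5.65% were lower and 5.25% higher at day 2 against day 0, and fewer in the other comparisons, so few of 22 would pass at those shares and the count of 0 says little about the list. At day 2 against day 0 they ran from −0.64 for the deacetylase gene Hdac2 to 0.60 for the histone-binding subunit gene Rbbp7, with a median of −0.08. Parp1 was at −0.61 and Zfp281, which binds Nanog, at −0.61. Dimmer probe sets of Parp1 and Zfp281 were at −1.35 and −1.15, and the mean over those of Parp1 was −1.06. Rbbp4 was at −1.08 for day 2 minus day 1 without the probe sets of those name endings, against −0.10 with them. The summed signal of the 22 was 121012 on day 0, 125012 on day 1 and 117798 on day 2.

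The 3 nearest protein-coding genes on each side were taken by gene order in GRCm38.p6, a rule chosen after other values had been seen. On chromosome 6 Nanog lies between genes that behaved differently. On its lower coordinate side, Dppa3, a gene of early germ cells and oocytes, had 465, 231 and 95.8 from day 0 to day 2. The next, Gdf3, a ligand related to Nodal, had 2817, 609 and 111. The third, Apobec1, a cytidine deaminase gene, had 170, 23.6 and 12.1. They were at −1.78, −4.10 and −1.73 for day 2 minus day 0, where 5.65% of all genes were at least 2-fold lower. Gdf3 and Apobec1 were already at least 2-fold lower at day 1, where 2.59% of all genes were, at −2.11 and −1.51, unlike Nanog at −0.09. On the other side Slc2a3, a glucose transporter gene, was at 0.66 at day 2 against day 0, and at 1.40 without the probe sets of those name endings, and Foxj2 was at 0.49.

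Around the other factors 1 measured neighbour, H2-Q10, was at least 2-fold apart at day 2 against day 0. Over all genes 5.65% were lower and 5.25% higher, so few neighbours would pass at those shares and this count says little about these regions. Near Sox2 on chromosome 3, the 4 measured neighbours lay between −0.34 for Atp11b and 0.41 for Dcun1d1 at day 2 against day 0, where Sox2 was at −3.01. Fxr1, on the lower coordinate side, had 5296, 5313 and 5353 from day 0 to day 2. Near Pou5f1 on chromosome 17, Tcf19 was at −0.44 and Cchcr1 at −0.12. Psors1c2 was at −0.99, and H2-Q10, with a dim signal of 7.80 on day 2 against 80.6 on day 0, was at −1.10, and at −0.69 with a constant of 112. All 4 measured neighbours of Pou5f1 were at or above 0 for day 1 minus day 0, where Pou5f1 was at −4.67. For day 2 minus day 1 all 4 were below 0: H2-Q10 was at −1.12, Tcf19 at −0.63, Cchcr1 at −0.81 and Psors1c2 at −1.24. Pou5f1 was there at −0.44 between signals below the constant. In that comparison the median of all genes was 0.002, and 2.65% of them were at least 2-fold lower. With a constant of 112 H2-Q10 was at −0.70 and Psors1c2 at −0.96 for day 2 minus day 1, so neither was past 2-fold. Psors1c2 passed 2-fold at day 2 against day 0 under 4 alternatives, at −1.19 with a constant of 27.9. Near Sall4 on chromosome 2 the 5 measured neighbours lay between −0.71 for Zfp217 and 0.59 for Nfatc2 at day 2 against day 0.

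**Figure D4:**
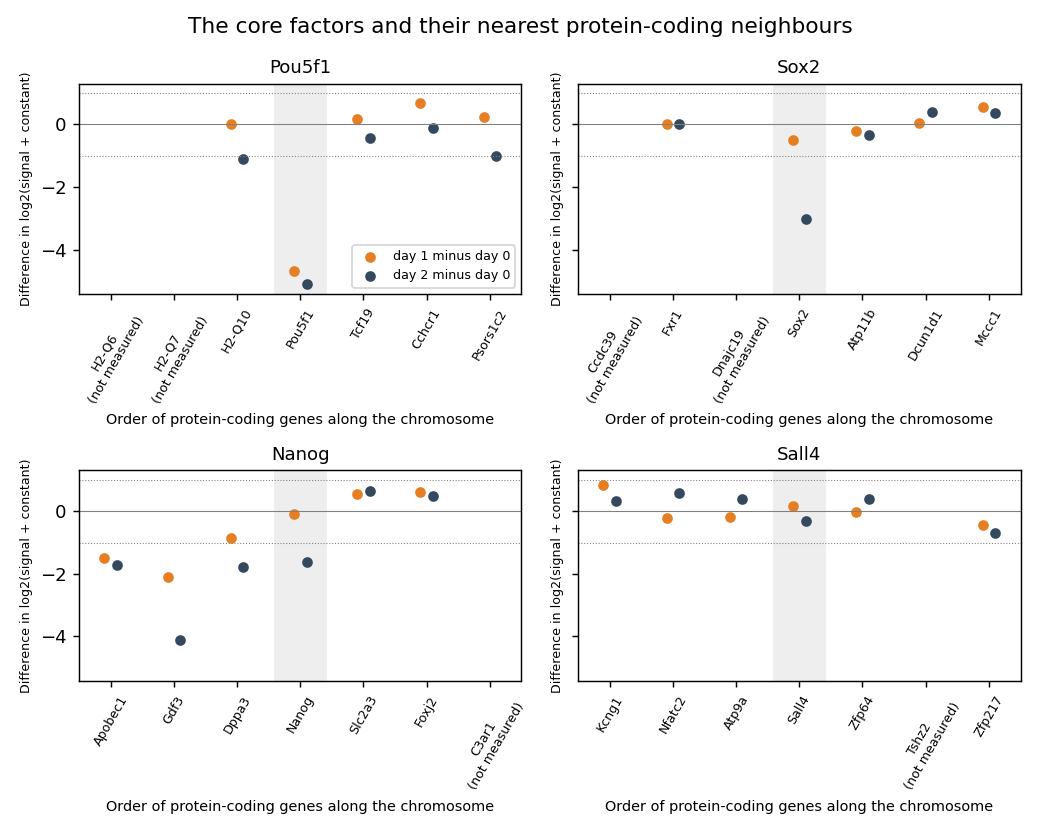
Log2 difference to day 0 at day 1 (orange) and at day 2 (dark) for each core factor (grey band) and the 3 nearest protein-coding genes on either side in chromosome order; genes without points were not measured. Near Nanog the 3 genes on the lower coordinate side were at least 2-fold lower at day 2, at −1.78, −4.10 and −1.73, and near Sox2 no measured neighbour was. Over all genes 5.65% were at least 2-fold lower at day 2.

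Markers of lineages that the factors hold back gave the following values beside these results. Cdx2, the trophectoderm factor that opposes Oct3/4, had 152 at day 0, 856 at day 1 and 828 at day 2 by its brightest probe set. It was at 2.14 for day 1 minus day 0. Of 18 trophectoderm markers 16 were measured, and 13 were at least 2-fold higher at day 2 against day 0, where 5.25% of all genes were. Without the probe sets of those name endings 11 were measured and 8 were higher. Plac1 (4.10), Ascl2 (3.86), Krt8 (2.86) and Krt18 (2.60) had the largest differences. Eomes, at −0.32, was the only measured trophectoderm marker below 0 at day 2 against day 0. Eomes and Hand1 are also in the list of streak markers in the closing section. Gata6, a primitive endoderm factor held back by Nanog, had 131, 457 and 458, and was at 1.46 by day 1. These are RNA signals, and whether the Cdx2 and Gata6 values are linked to those of the core factors was not tested. Gata4, another primitive endoderm factor, had 76.0, 59.4 and 41.9. Of 17 primitive endoderm markers 13 were measured, with 4 at least 2-fold higher and 2 lower at day 2 against day 0, Col4a2 (1.92), Col4a1 (1.89), Lama1 (−1.66) and Amn (−1.51) with the largest differences. Of 9 measured ES cell markers 8 were at least 2-fold lower at day 2 against day 0, where 5.65% of all genes were, and of these Tdgf1, Fgf4, Esrrb and Zfp42 had the largest differences. All but Dppa5a and Alpl are also in the target or regulator list above, so this count is largely not new. Alpl was not lower, at 0.77 at day 1 and 0.34 at day 2 against day 0. At day 0 Zfp42 and Dppa5a, which mark ES cells, had signals of 18655 and 35754. Fibroblast markers were dim: of 17 on the array 10 had a mean under the constant, among them Col1a1, Col3a1, Dcn and Lum with at most 57.3 on any array and none at 0. Their 7 measured members summed to 10635 at day 0, 13197 at day 1 and 6625 at day 2, most of it Vim, which ES cells also express (9561, 12280 and 5842). The part of these other cell types in the values of the 4 factors was not tested.

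The deposited signals had 2% trimmed means of 497.5 to 497.6, so close that scaling before deposit may have set them. This says nothing about how alike the RNA or the arrays were. Median signals ran from 83.5 to 92.5. Ribosomal protein genes, as a comparison, lay between −0.32 and 0.22 for day 2 minus day 0, with a median of 0.10 over 16 measured genes. Of 9 measured reference genes, B2m was at 1.53, Gusb at 0.84, Polr2a at −0.81 and Ywhaz at 0.39 for day 2 minus day 0, with a median of 0.04. The day 2 column also holds 64 control probe sets that the other columns do not, and writes its numbers in another format. Whether that array was processed apart is not stated in the sources used here. The day 2 values of Sox2 and Nanog rest on it alone.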

How the data were processed

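Total RNA of 3 cultures, 1 per day, was profiled on Affymetrix arrays after biotin labelling, per the labels' protocols. The deposited values are intensities on a linear scale, 1 per probe set, made with MAS5 per the submitters' processing notes; its version and settings are not given in the sources used here. Genes come from the platform annotation, in which 34945 probe sets name 1 gene, 932 several and 9160 are not listed here. Signals were brought to equal 2% trimmed means over the arrays, 55.9 was added and log2 taken, and probe sets with a mean signal of at least 55.9 were kept (26925 of 45037). Differences are later minus earlier day. With 1 array per day no test is possible, so values were counted by size, at least 2-fold. The number of arrays limits the precision. No column of other samples was present. Named were all probe sets of the 4 factors, the 3 nearest genes to each, up to 4 members of each of 14 gene lists with the largest day 2 difference, family members past 2-fold, Cdx2, Gata6 and Gata4. Other genes were named after their values were seen, as said beside them or because the same list holds them. The factors and lists were chosen with earlier results of these data known. The remaining lists, neuroectoderm and streak markers, are given in the closing section. Python 3.11.15 with pandas 2.3.3 was used.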

Additional observations from a re-analysis of the deposited data

How the results depend on the processing

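Under the 10 alternatives (another constant, scaling or filter, or another choice of probe sets) every recomputed count of probe sets of the 4 factors at least 2-fold lower was within 1.5 times, and no value of theirs past 2-fold turned its sign. Pou5f1, Sox2 and Nanog have 1 probe set each, so another filter or choice of probe sets could not move their values. Leaving out the scaling hardly moved them, so only another constant or another scaling checks these values. The size of the Pou5f1 difference depends on the constant, because its later signals lie below it: it was −5.80 at day 2 and −5.14 at day 1 with a constant of 27.9, and −4.30 and −4.04 with a constant of 112. Over all alternatives Sox2 ran from −3.12 to −2.97 at day 2 and from −0.64 to −0.49 at day 1 against day 0, Nanog from −1.71 to −1.59 and from −0.23 to −0.09, and Sall4 from −0.42 to −0.25 and from 0.01 to 0.16. Equal medians moved the median of all genes for day 1 minus day 0 to −0.09, against 0.04, and the genes at least 2-fold lower and higher to 446 and 193, against 330 and 305; equal ribosomal protein medians gave 413 and 221. At day 2 against day 0 equal ribosomal protein medians gave 823 lower and 554 higher, against 718 and 668. With the constant of 27.9, 469 genes were higher at day 1 against day 0. With the constant of 112, 146 were higher there, and 184 were lower and 157 higher at day 2 against day 1, in place of 337 and 266. Of the 4881 recomputed values of other genes, 73 crossed the 2-fold line and 0 turned their sign while past it. Of the recomputed counts and medians of gene lists, 68 of 1260 moved, by over 1.5 times for a count or by over the probe set SD for a median. For the cases not named beside the results the cause was not tested. No paired analysis was possible because there is 1 array per day, and no array could be left out. Signals below the constant have no resolved order.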

Other observations

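Genes of neuroectoderm and of the primitive streak were read as lists too. Of 9 measured neuroectoderm and epiblast markers 2 were at least 2-fold lower and 0 higher at day 2 against day 0, where 5.65% of all genes were lower and 5.25% higher, with Otx2 at −3.40, Neurod1 at −1.32, Tubb3 at −0.76 and Map2 at −0.40, and Neurod1 at −0.86 with a constant of 112. Fgf5, the marker of the primed epiblast, had signals of at most 39.3, and Sox1, the neural SOX gene, of at most 11.9, both by their brightest probe set and below the constant. Of 7 measured primitive streak and mesoderm markers 1 was lower and 1 higher at day 2 against day 0. Hand1 and Eomes, which are also in the trophectoderm list, were the 2 higher at day 1 against day 0, where 2.4% of all genes were. Eomes was not past 2-fold there with a constant of 112, with equal medians or with equal ribosomal protein medians. Hand1 was at 1.26, Foxh1 at −1.07, Mesp1 at −0.49 and Eomes at −0.32 at day 2 against day 0. Eomes had 381, 844 and 295 from day 0 to day 2, a peak at day 1 like that of Sox21.

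The control probe sets read at day 2 alone include pairs at both ends of a transcript. The ratio of the 3′ to the 5′ signal was 1.18 for beta-actin and 0.776 for Gapdh, 1.85 for pyruvate carboxylase, 2.11 for the transferrin receptor and 2.15 for the 18S ribosomal RNA. Pairs for the other days are not used here, so the days could not be compared.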
